A study of Mus musculus with 8 samples.

Results

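Nuclear receptors are transcription factors that switch genes on or off when a hormone, lipid or foreign chemical binds them, and coregulators are the proteins they recruit to do so. The transcripts of 40 such genes were followed here in mouse primary hepatocytes, 34 nuclear receptors and 6 coregulators, chosen by gene symbol from a table of 34745 genes. All 40 symbols were found, each in 1 row. Poly(A)-selected RNA had been sequenced from hepatocytes of male mice labelled as wild type, injected at 6 weeks of age with adeno-associated virus of serotype 8 and sampled 4 weeks later. It delivered mouse Trib3 in 4 libraries (AAV-Trib3) and GFP in the other 4 (AAV-GFP), so both groups carried a vector. The labels do not name the promoter of the vector, and they do not say whether each library came from its own mouse, so p-values refer only to how these libraries vary, which may in part be technical. The comparison asked what raised Trib3, a pseudokinase known to bind AKT and the stress factor ATF4, does to the receptor and coregulator transcripts.

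In the liver these receptors divide the labour of metabolism. FXR (Nr1h4) senses bile acids and induces SHP (Nr0b2), which in turn represses bile acid synthesis. PXR (Nr1i2) and CAR (Nr1i3) induce drug-metabolising enzymes, LXRs (Nr1h2, Nr1h3) respond to oxysterols, PPARs to fatty acids, and the glucocorticoid receptor (Nr3c1) to corticosteroids. Many of them bind DNA as a dimer with an RXR. Coactivators such as NCOA1 to NCOA3 and PGC-1 (Ppargc1a, Ppargc1b) join the ligand-bound receptor, whereas NCOR1 holds histone deacetylases on the unbound one.

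Libraries held between 11350442 and 15361128 counts. Trib3 had 27.9, 62.6, 67.2 and 20.2 CPM (read counts per library total, adjusted by TMM) in AAV-Trib3 replicates 1 to 4, against 2.68, 1.10, 2.46 and 3.36 CPM in AAV-GFP replicates 1 to 4, so every AAV-Trib3 library lay above every AAV-GFP library. The hepatocyte label held: all 10 hepatocyte markers had at least 3 counts in every library and summed to 78410 to 117918 CPM in AAV-Trib3 and 81998 to 153947 CPM in AAV-GFP. Markers of other liver cells were present at low levels that differed between libraries. The 11 Kupffer cell and macrophage markers summed to 10.4 to 97.5 CPM in AAV-Trib3 and 8.38 to 76.9 CPM in AAV-GFP, the 11 sinusoidal endothelial markers to 59.8 to 88.2 and 24.5 to 116 CPM, and the 12 stellate cell and fibroblast markers to 18.1 to 26.3 and 5.49 to 43.9 CPM. None of these was at 0 in all libraries. The 7 cholangiocyte markers summed to 12.8 to 36.6 CPM in AAV-Trib3 and 14.7 to 17.7 CPM in AAV-GFP, and the 6 lymphocyte markers to 0.880 to 3.35 and 0.578 to 3.36 CPM. Tested markers higher in AAV-Trib3 numbered 1 of 10 for hepatocytes, 8 of 10 for Kupffer cells and 7 of 11 for endothelium. They numbered 2 of 5 for stellate cells, 3 of 3 for cholangiocytes and 1 of 1 for lymphocytes. The part of cell make-up in the values below was not tested. AAV-GFP replicate 2 stood apart from the rest, with 32.0% of its counts on the mitochondrial genome, against 16.3% to 18.5% in AAV-Trib3 and 14.9% to 16.8% in the other AAV-GFP libraries.

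The members spanned a wide range of abundance. The deposited FPKM scale divides by a length per gene, so that genes can be set side by side. Which length was used is not stated. For several members, Rxra and Nr1i3 among them, it did not match the exonic bases in the GENCODE M21 annotation. Classes and order of members therefore hold only on this scale. On it, 7 members had a mean of at least 10 FPKM over the 8 libraries, 20 lay between 1 and 10 FPKM and 13 lay under 1 FPKM. The top 7 were the RXR subunit Rxra, FXR, PXR, CAR, SHP, the fatty acid receptor Ppara and the LXR gene Nr1h3. Rxra stood at 36.3 ± 3.92 FPKM in AAV-Trib3 and 40.4 ± 13.0 FPKM in AAV-GFP (SD, n = 4 each), and Nr1h4 at 39.8 ± 12.4 and 34.4 ± 11.4 FPKM. The FPKM values were not adjusted by TMM, so their group means and SDs are not comparable with those in CPM. In AAV-GFP replicate 2, with a TMM factor of 0.70, Rxra had 21.7 FPKM, against 41.5 to 50.1 FPKM in the other AAV-GFP libraries. In CPM, Rxra averaged 330 ± 54.2 in AAV-GFP. Rxra exceeded Nr1h4 in 5 of 8 libraries and Nr1i3 exceeded Nr0b2 in 5 of 8, so neither pair had a fixed order on this scale. The length behind the FPKM of Nr1i3 was longer than its 4414 exonic bases in GENCODE M21, so its level and place may be understated here. Nr1h4 exceeded Nr1i2 in 7 of 8 libraries, and Ppara exceeded Nr1h3 in 7 of 8. Among the less abundant members, Nr6a1 exceeded Rarg, the gene of retinoic acid receptor gamma, in all 8 libraries. Nr4a1, an immediate early receptor, ranked anywhere from 7th to 26th among the 40, the widest swing of rank of the tested members.

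**Figure D1:**
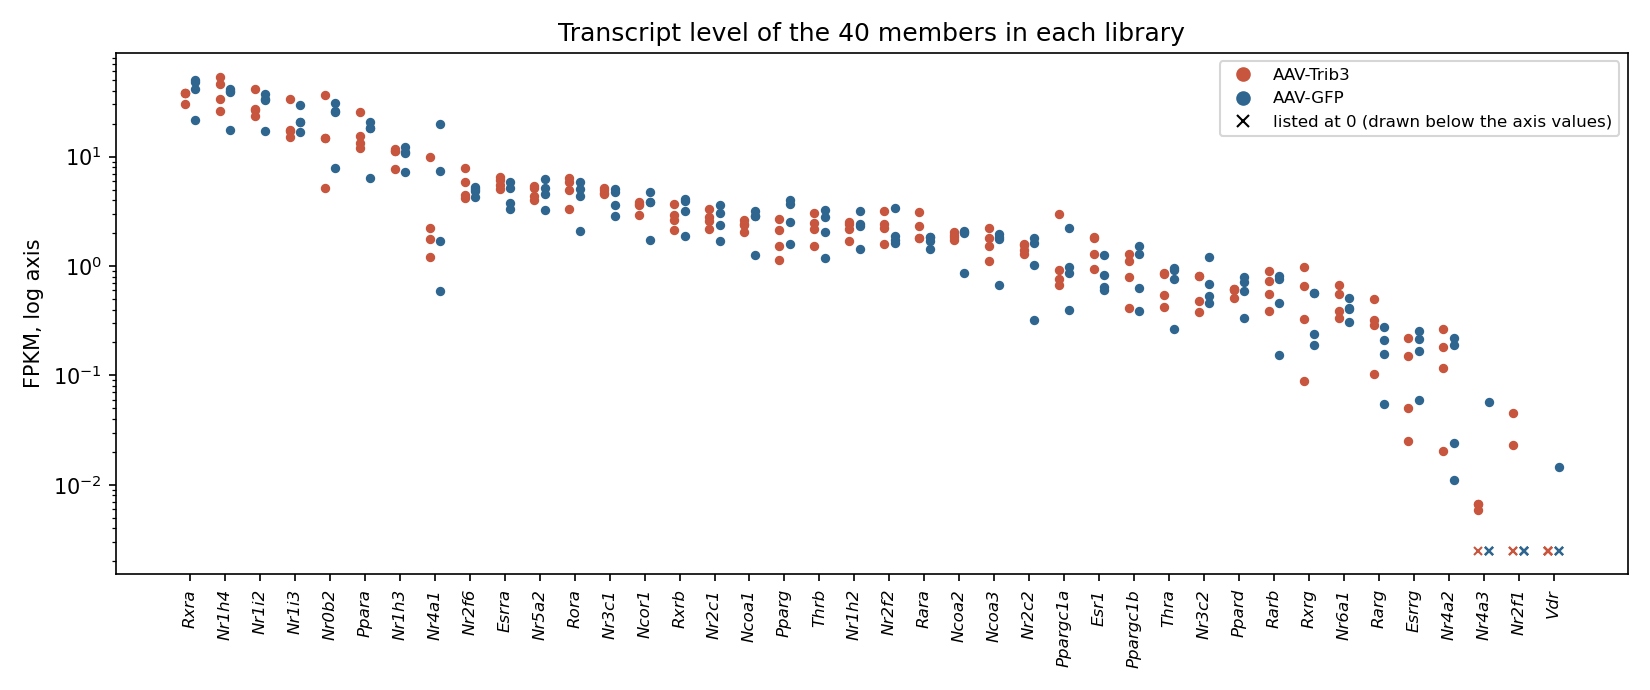
FPKM (log axis) of each of the 40 members in the 4 AAV-Trib3 and 4 AAV-GFP libraries, ordered by mean level. Each point is a library and crosses mark values listed at 0. Rxra and Nr1h4 lead, Nr4a1 is the most scattered of the abundant members, and Nr4a3, Nr2f1 and Vdr lie at the bottom.

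Of the 40 members, 37 had enough counts to be tested. The other 3 were close to absent. Nr2f1 had 0, 4, 2 and 0 counts in AAV-Trib3 and 0 in all AAV-GFP libraries, Nr4a3 had 1, 1, 1 and 0 counts against 0, 0, 0 and 9, and the vitamin D receptor Vdr had 0 in all AAV-Trib3 libraries against 1, 0, 0 and 0. Vdr and Nr2f1 (COUP-TFI) are receptors better known from other tissues.

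No member changed by the test. In edgeR's quasi-likelihood test across 11036 genes with Benjamini-Hochberg adjustment, 0 of the 37 tested members passed an adjusted p of 0.05, where 0% of all tested genes did (0 of 11036). The adjusted p was 0.9995 for every member. DESeq2 called 0 members too, against 0.0634% of all genes (7 genes), and limma-voom called 0 of either. At an unadjusted p under 0.05, 2 members were listed, Pparg and Esr1, which is 5.41% of 37 beside 3.14% of all tested genes. DESeq2 and limma-voom also listed 2 members each at that level, beside 3.70% and 3.14% of all genes. Groups did not overlap for 0 of the 37 members, beside 2.29% of all tested genes. The fold changes leaned neither way: 18 members were above 0 and 19 below, with a median log2 fold change (AAV-Trib3 over AAV-GFP) of -0.01, the same as the -0.01 of all tested genes.

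A p that misses the threshold does not show that a transcript is the same in both groups, and the precision differed between members. The standard error of the log2 fold change ran from 0.13 to 0.95 over the 37 tested members, with a median of 0.24, against 0.22 over all tested genes. For 24 of them the 95% interval lay between -1 and 1, so a change of 2-fold in either direction was outside it. The narrowest intervals belonged to Nr3c1, Nr5a2 and Nr1h3, and the widest to Nr4a1, Nr4a2 and Esrrg.

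**Figure D2:**
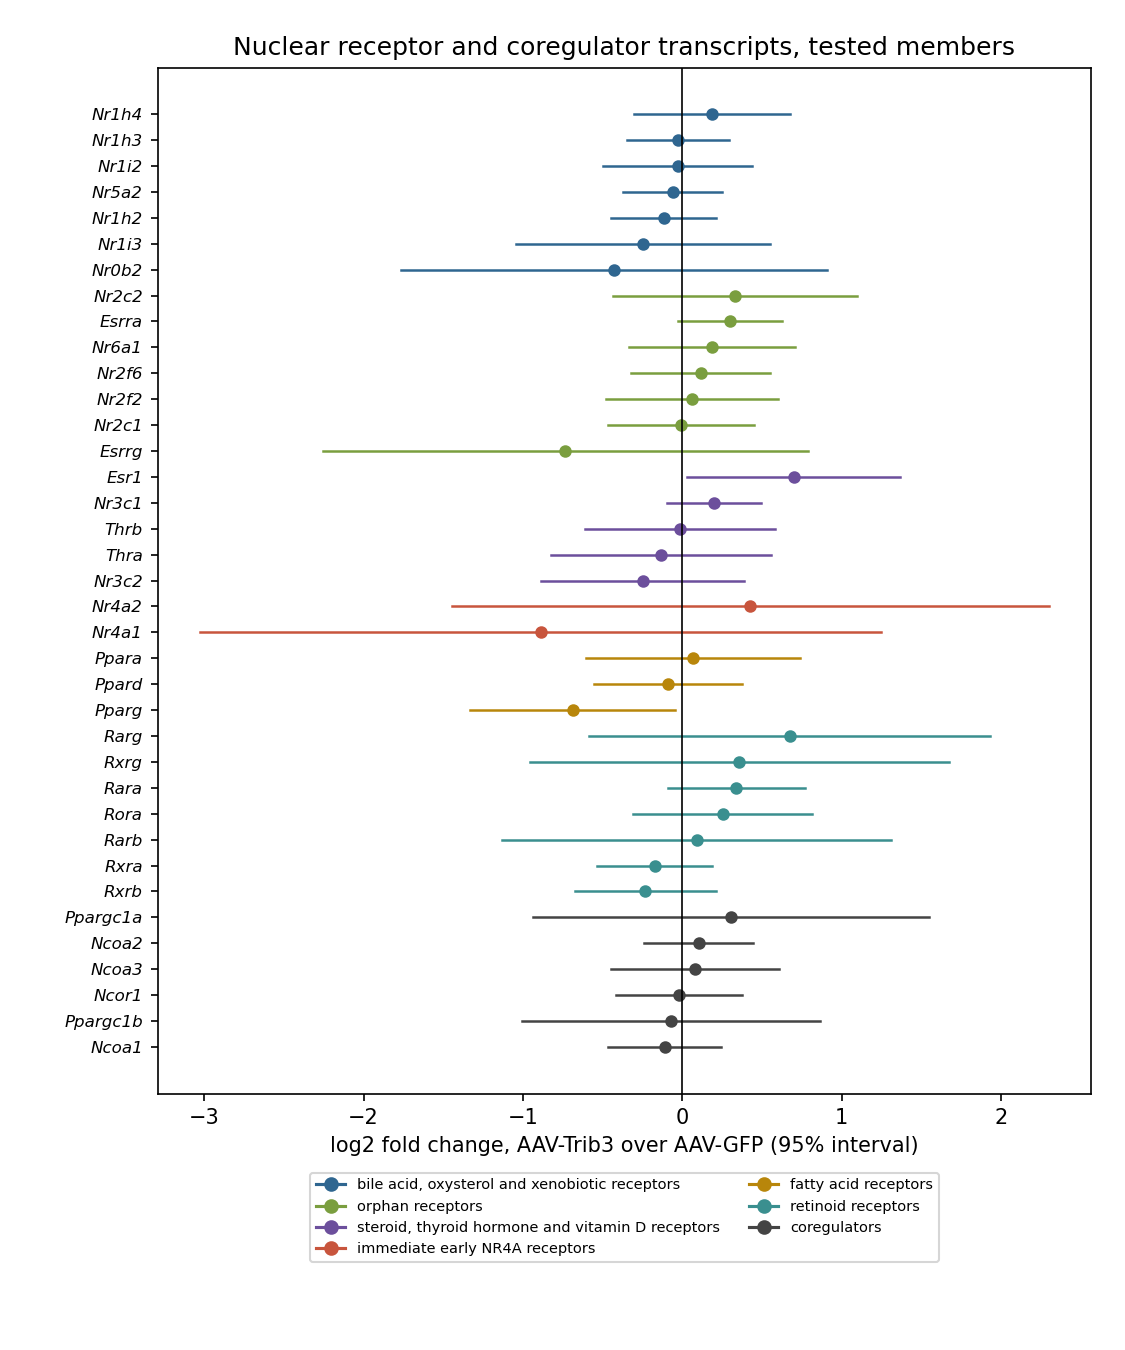
Log2 fold change of AAV-Trib3 over AAV-GFP with its 95% interval from edgeR for the 37 tested members, grouped and coloured by role. The intervals of Pparg and Esr1 leave out 0 before adjustment, all others include it, and those of Nr4a1, Nr4a2 and Esrrg are the widest.

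The bile acid, oxysterol and xenobiotic receptors were grouped with SHP (Nr0b2) and LRH-1 (Nr5a2), which were not placed with the orphan receptors. Of these 7, 6 had fold changes below 0, SHP and LRH-1 among them, beside 52.1% of all tested genes. Their standard errors ran from 0.14 to 0.60 on the log2 scale. FXR (Nr1h4), the bile acid sensor, stood at 159, 106, 84.9 and 137 CPM in AAV-Trib3 replicates 1 to 4 and at 119.6, 78.6, 123 and 106 CPM in AAV-GFP replicates 1 to 4. The groups overlapped across most of their range, and the log2 fold change was 0.18 ± 0.22 (SE; 95% interval -0.31 to 0.67). That of Nr1h4 was 0.03 without AAV-Trib3 replicate 1 and 0.32 without AAV-Trib3 replicate 3. SHP (Nr0b2), a receptor without a DNA-binding domain that represses others, was far more uneven, at 15.8, 16.9, 42.5 and 5.54 CPM in AAV-Trib3 against 33.4, 41.6, 8.30 and 25.6 CPM in AAV-GFP. Its highest values came from AAV-Trib3 replicate 3 and AAV-GFP replicate 2, its lowest from AAV-Trib3 replicate 4 and AAV-GFP replicate 3, and its log2 fold change of -0.43 ± 0.60 had an interval of -1.77 to 0.91. Without AAV-Trib3 replicate 3 that value was -1.09, and without AAV-Trib3 replicate 4 it was -0.12. SHP thus varied within each group by more than the group means differed, and the library with the lowest SHP, AAV-Trib3 replicate 4, had the second highest FXR.

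PXR (Nr1i2) had 64.1, 70.0, 108 and 56.8 CPM in AAV-Trib3 and 79.7, 62.4, 88.5 and 74.3 CPM in AAV-GFP. AAV-Trib3 replicate 3 stood above the range of AAV-GFP and replicate 4 below it, and the log2 fold change was -0.03 ± 0.21 (95% interval -0.50 to 0.44). CAR (Nr1i3) had 273, 130.0, 155 and 139.9 CPM in AAV-Trib3 and 169, 367, 167 and 125 CPM in AAV-GFP. The high values came from a single library of each group, AAV-Trib3 replicate 1 and AAV-GFP replicate 2. Nr1i3 had a log2 fold change of -0.25 ± 0.36, which turned to 0.19 without AAV-GFP replicate 2. In GENCODE M21, 74.9% of the exonic bases of Nr1i3 (chromosome 1, 171213970 to 171220701 in mm10, plus strand) also lie in exons of Tomm40l on the opposite strand. No strand setting of the counting is given in the sources used here, so it is not known whether reads of these genes were told apart there. Tomm40l itself was counted at 4.08, 6.23, 7.70 and 4.66 CPM in AAV-Trib3 and 4.19, 1.81, 5.05 and 4.52 CPM in AAV-GFP.

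The LXR genes were steady. Nr1h3 (LXR alpha) had 57.0, 58.7, 41.3 and 54.7 CPM in AAV-Trib3 and 54.5, 53.4, 59.2 and 48.5 CPM in AAV-GFP, a log2 fold change of -0.03 ± 0.14 with a 95% interval of -0.35 to 0.29. Nr1h2 (LXR beta) averaged 18.6 ± 2.37 CPM in AAV-Trib3 and 20.1 ± 2.61 CPM in AAV-GFP (SD, n = 4 each). LRH-1 (Nr5a2), which supports bile acid synthesis genes, had 44.2, 45.7, 39.9 and 33.4 CPM in AAV-Trib3 against 43.3, 41.1, 38.1 and 47.6 CPM in AAV-GFP, and its log2 fold change was -0.06 ± 0.14. The groups overlapped for all 3 of these genes. AAV-Trib3 replicate 3 was the lowest library for Nr1h3 and Nr1h2 and AAV-Trib3 replicate 4 for Nr5a2, while AAV-GFP replicate 4 was the highest for Nr1h2 and Nr5a2.

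**Figure D3:**
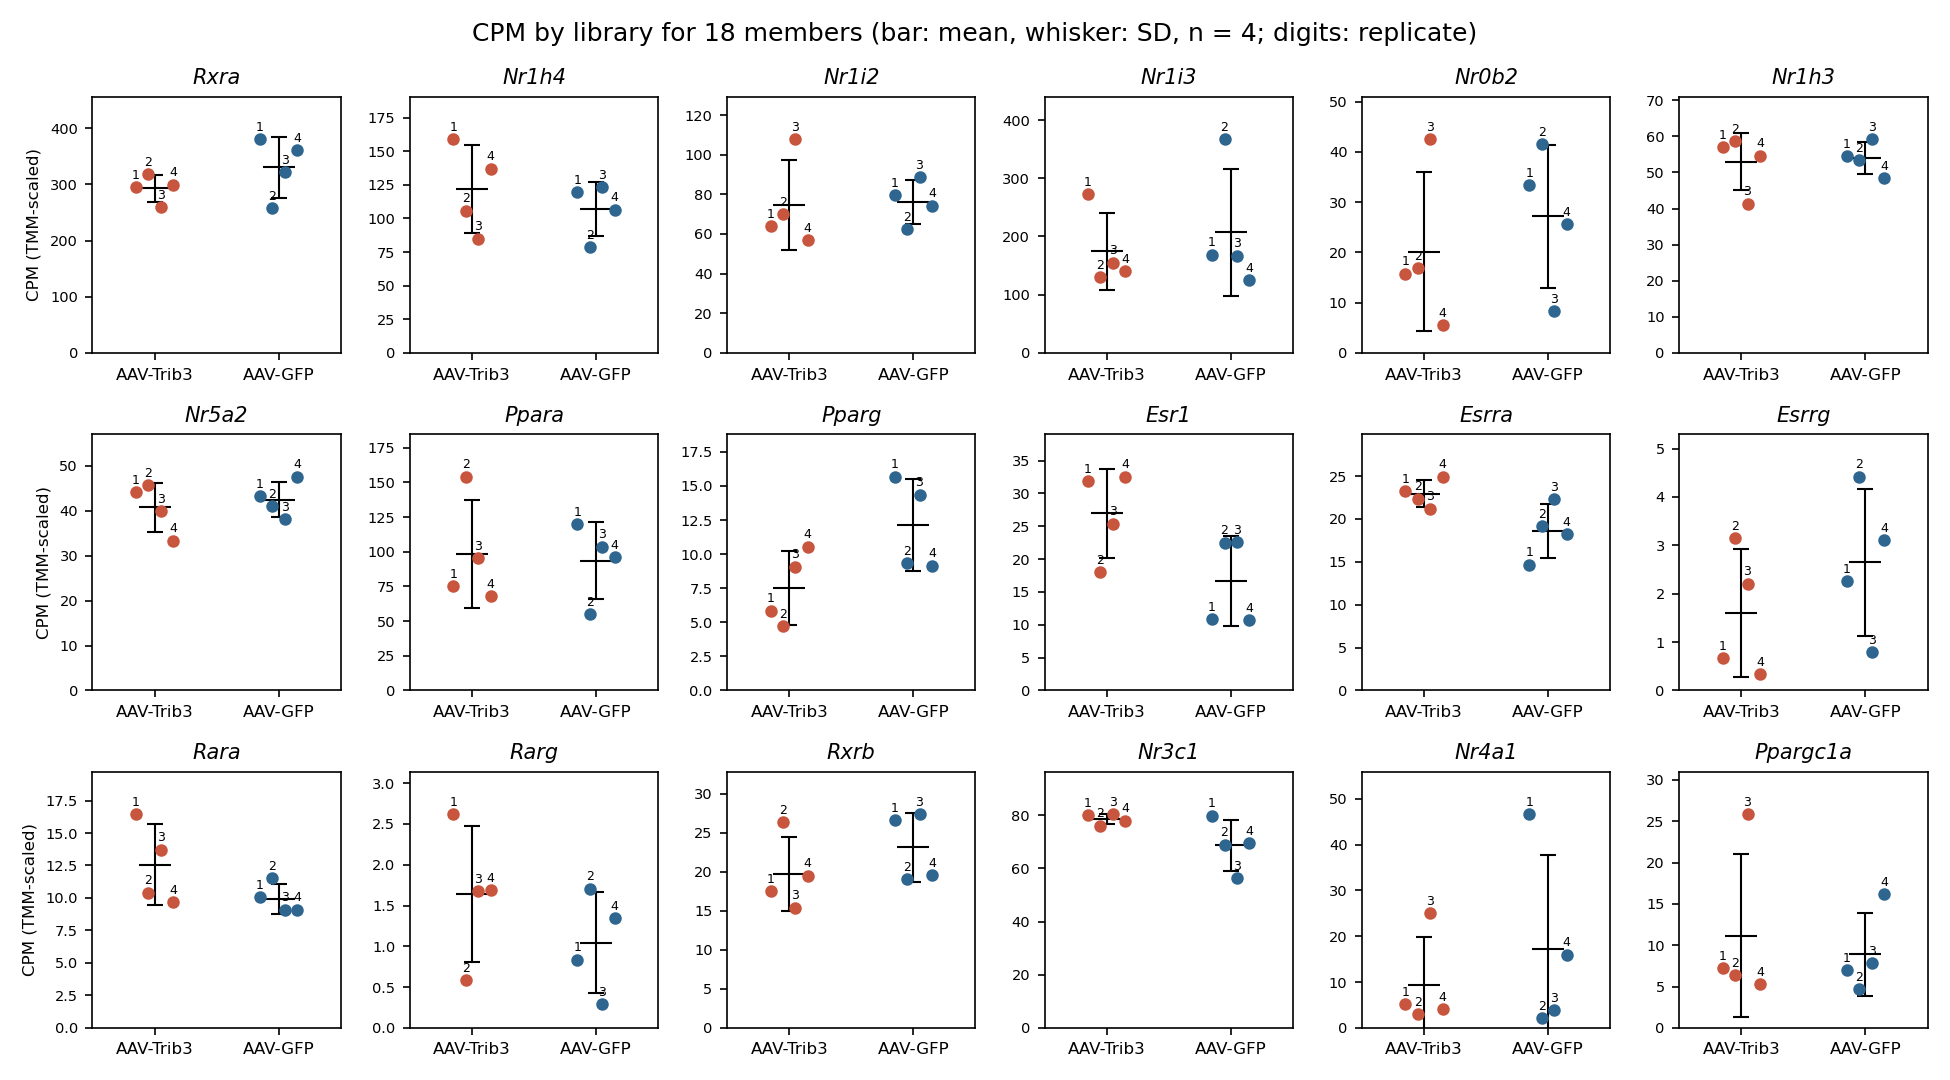
TMM-scaled CPM in each library (points, with the replicate number), the mean (bar) and SD (whisker, n = 4) for 18 members, AAV-Trib3 left and AAV-GFP right, with the whiskers of Nr4a1 cut at 0. Groups overlap in every panel, and single libraries such as AAV-Trib3 replicate 3 for Nr4a1 and Ppargc1a and AAV-GFP replicate 2 for Nr1i3 stand off from their group.

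Among the fatty acid receptors, Pparg had the smallest unadjusted p of all members. PPAR gamma drives fat storage in adipocytes and is normally low in liver. The gene (chromosome 6, 115360951 to 115490399 in mm10, plus strand) had 5.85, 4.69, 9.07 and 10.5 CPM in AAV-Trib3 and 15.7, 9.34, 14.4 and 9.15 CPM in AAV-GFP, resting on 64 to 156 counts and on 93 to 199 counts. AAV-Trib3 replicates 1, 2 and 3 lay below every AAV-GFP library, replicate 3 only just, while replicate 4 lay above AAV-GFP replicates 2 and 4. The log2 fold change was -0.69 ± 0.29 (SE), with an unadjusted p of 0.0388 and an adjusted p of 0.9995 in edgeR. The unadjusted p ranged from 0.0145 to 0.113 when 1 library was left out in turn, and the log2 fold change stayed between -0.89 and -0.52. Kupffer cells also express Pparg, and the 11 Kupffer cell and macrophage markers, 8 of 10 tested ones higher in AAV-Trib3, summed to 97.5, 10.4, 22.7 and 63.3 CPM in AAV-Trib3 replicates 1 to 4 and 12.0, 76.9, 8.38 and 72.2 CPM in AAV-GFP replicates 1 to 4. The part of these cells in the level of Pparg was not tested. In bulk RNA, fewer cells of a type and less RNA per cell cannot be told apart.

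Ppara, the receptor that turns on fatty acid oxidation in fasting, had 75.0, 154, 95.2 and 68.1 CPM in AAV-Trib3 and 119.7, 54.8, 104 and 95.9 CPM in AAV-GFP. AAV-Trib3 replicate 2 was the highest and AAV-GFP replicate 2 the lowest of the 8 libraries, and the log2 fold change was 0.07 ± 0.30. It turned to -0.23 without AAV-Trib3 replicate 2. Ppard, a broadly expressed PPAR, was low and even, at 3.67 ± 0.25 CPM in AAV-Trib3 and 3.90 ± 0.73 CPM in AAV-GFP.

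The retinoid receptors, which respond to vitamin A derivatives, were grouped with the retinoid-related orphan receptor Rora, and 5 of these 7 had fold changes above 0. Rxra, the shared dimer partner and the most abundant member on the FPKM scale, had 295, 318, 259 and 299.8 CPM in AAV-Trib3 and 380.5, 257, 322 and 361 CPM in AAV-GFP. AAV-GFP replicates 1, 3 and 4 lay above all AAV-Trib3 libraries and AAV-GFP replicate 2 lay below them. For Rxra it came to a log2 fold change of -0.17 ± 0.16 (95% interval -0.53 to 0.19), and -0.27 with an unadjusted p of 0.0558 without AAV-GFP replicate 2. Rxrb, another RXR, had 17.5, 26.4, 15.4 and 19.5 CPM in AAV-Trib3 against 26.6, 19.1, 27.4 and 19.6 CPM in AAV-GFP, with AAV-Trib3 replicates 1 and 3 below the AAV-GFP range, the other 2 within it, and a log2 fold change of -0.23 ± 0.20. Rara, the retinoic acid receptor with the highest mean FPKM, had 16.4, 10.4, 13.7 and 9.66 CPM in AAV-Trib3 and 10.1, 11.5, 9.10 and 9.09 CPM in AAV-GFP. Replicates 1 and 3 of AAV-Trib3 lay above AAV-GFP and the other 2 within it, for a log2 fold change of 0.34 ± 0.19. Rarg had 2.62, 0.586, 1.68 and 1.69 CPM in AAV-Trib3 and 0.838, 1.71, 0.289 and 1.34 CPM in AAV-GFP, so its log2 fold change of 0.67 ± 0.56 rested on 4 to 43 counts a library. Rarb and Rxrg were as sparse, with 95% intervals of -1.13 to 1.31 and -0.95 to 1.67. In GENCODE M21, 34.1% of the exonic bases of Rarb also lie in exons of Top2b on the opposite strand. Rora, which drives clock and lipid genes, averaged 75.5 ± 22.5 CPM in AAV-Trib3 and 63.4 ± 15.5 CPM in AAV-GFP.

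Steroid and thyroid hormone receptors included the member with the second smallest p. Esr1, estrogen receptor alpha (chromosome 10, 4611593 to 5005614 in mm10, plus strand), had 31.9, 18.0, 25.4 and 32.6 CPM in AAV-Trib3 and 10.9, 22.5, 22.6 and 10.7 CPM in AAV-GFP, from 246 to 523 counts and from 130 to 313 counts. The AAV-GFP libraries fell into a low pair, replicates 1 and 4, and a pair at 22.5 and 22.6 CPM, and AAV-Trib3 replicate 2 lay below that upper pair. The log2 fold change was 0.70 ± 0.30 (SE), the unadjusted p 0.0429 and the adjusted p 0.9995 in edgeR. It lay between 0.52 and 0.89 when 1 library was left out in turn, with an unadjusted p between 0.0195 and 0.109. The glucocorticoid receptor Nr3c1, which mediates the response to corticosteroids, was the least variable tested member. It had 80.0, 76.1, 80.4 and 77.9 CPM in AAV-Trib3 and 79.8, 68.9, 56.3 and 69.4 CPM in AAV-GFP, and AAV-GFP replicate 1 was the only AAV-GFP library to reach the AAV-Trib3 range. Its log2 fold change of 0.20 ± 0.13 had a 95% interval of -0.10 to 0.49.

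The mineralocorticoid receptor Nr3c2 averaged 8.37 ± 2.73 CPM in AAV-Trib3 and 9.93 ± 3.21 CPM in AAV-GFP. The thyroid hormone receptors differed in level, with Thrb, the main hepatic form, at 2.30 ± 0.63 and Thra at 0.665 ± 0.220 FPKM in AAV-Trib3, and at 2.30 ± 0.90 and 0.728 ± 0.321 FPKM in AAV-GFP. Their log2 fold changes were -0.01 ± 0.27 and -0.13 ± 0.31. Thra shares 263 exonic bases (5.70%) with Nr1d1 on the opposite strand, and Nr1d1, a REV-ERB of the circadian clock, was itself uneven at 5.73 to 48.7 CPM in AAV-Trib3 and 12.0 to 66.0 CPM in AAV-GFP.

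The orphan receptors, which have no agreed physiological ligand or were first found without one, had fold changes above 0 for 5 of 7 tested members. Esrra (ERR alpha), a partner of PGC-1 in mitochondrial gene control, had 23.2, 22.4, 21.2 and 24.9 CPM in AAV-Trib3 and 14.7, 19.2, 22.3 and 18.2 CPM in AAV-GFP. All AAV-Trib3 libraries lay above 3 of the 4 AAV-GFP libraries, and AAV-GFP replicate 3 lay among them, for a log2 fold change of 0.30 ± 0.15 and an unadjusted p of 0.0675. Esrrg, its relative, had 0.670, 3.15, 2.21 and 0.338 CPM in AAV-Trib3 and 2.26, 4.42, 0.794 and 3.11 CPM in AAV-GFP, with low and high libraries in both groups. The testicular receptors Nr2c1 and Nr2c2 had log2 fold changes of -0.01 ± 0.20 and 0.33 ± 0.34, and Nr2c2 was 0.08 without AAV-GFP replicate 2, where it stood at 8.03 CPM against 15.4 to 29.8 CPM in the other 7 libraries. Mrps25 on the opposite strand covers 30.7% of the exonic bases of Nr2c2, and Ocel1 covers 54.4% of those of Nr2f6. Nr2f6 averaged 33.7 ± 8.60 CPM in AAV-Trib3 and 31.2 ± 5.09 CPM in AAV-GFP. Nr2f2 (COUP-TFII), also a factor of venous endothelium, had 12.1, 11.9, 8.69 and 15.9 CPM in AAV-Trib3 and 8.30, 13.2, 9.46 and 15.6 CPM in AAV-GFP. The 11 endothelial markers, 7 of 11 higher in AAV-Trib3, summed to 88.2, 69.4, 59.8 and 66.6 CPM in AAV-Trib3 and 48.3, 80.0, 24.5 and 116 CPM in AAV-GFP, and their part in the level of Nr2f2 was not tested. Nr6a1, a germ cell factor, averaged 8.03 ± 2.43 CPM in AAV-Trib3 and 7.07 ± 1.02 CPM in AAV-GFP.

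The NR4A receptors are immediate early genes that rise within minutes of a stimulus and act without a classical ligand, and Nr4a1 was the most variable member. It had 5.12, 3.01, 25.0 and 4.12 CPM in AAV-Trib3 and 46.6, 2.11, 3.90 and 16.0 CPM in AAV-GFP, from 41 to 328 counts and from 21 to 556 counts. AAV-GFP replicate 1, AAV-Trib3 replicate 3 and AAV-GFP replicate 4 were high and the other 5 libraries lay between 2.11 and 5.12 CPM, so the high libraries came from both groups. The log2 fold change of -0.89 ± 0.95 was -2.07 without AAV-Trib3 replicate 3 and 0.31 without AAV-GFP replicate 1. Nr4a2 was near the limit of detection, with 2, 23, 10 and 16 counts in AAV-Trib3 and 16, 1, 2 and 17 counts in AAV-GFP.

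PGC-1 alpha (Ppargc1a), a coactivator induced by fasting that raises gluconeogenic and mitochondrial genes, had 7.19, 6.38, 25.8 and 5.27 CPM in AAV-Trib3 and 6.96, 4.72, 7.80 and 16.2 CPM in AAV-GFP. The 2 highest libraries, AAV-Trib3 replicate 3 and AAV-GFP replicate 4, were also high for Nr4a1, while AAV-GFP replicate 1 was high for Nr4a1 alone. The log2 fold change of Ppargc1a was 0.31 ± 0.55, and it turned to -0.52 without AAV-Trib3 replicate 3. Its relative Ppargc1b had 3.23, 5.64, 4.96 and 1.69 CPM in AAV-Trib3 and 5.36, 2.41, 2.60 and 5.80 CPM in AAV-GFP, with no excess in AAV-Trib3 replicate 3.

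Nr4a1, Nr4a2 and Ppargc1a are textbook targets of cAMP signalling through CREB, whose response element has the core TGACG. The 250 bases before the annotated start of each are shown because these members were also among the 5 most variable between libraries. The windows of the other two of those 5, Nr0b2 and Esrrg, held 0 copies of the core and are not shown. They are from RefSeq on GRCm38.p6 (the mm10 build), 5′ to 3′ on the strand of the gene, with each TGACG or its reverse complement CGTCA in capitals.
Nr4a1 (chr15:101266596-101266845, plus strand): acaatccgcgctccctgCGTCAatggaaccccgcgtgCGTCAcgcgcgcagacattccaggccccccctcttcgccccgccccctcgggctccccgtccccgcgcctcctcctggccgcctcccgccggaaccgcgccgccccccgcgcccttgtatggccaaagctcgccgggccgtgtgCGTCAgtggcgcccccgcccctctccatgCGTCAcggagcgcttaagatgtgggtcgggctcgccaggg
Nr4a2 (chr2:57124004-57124253, minus strand): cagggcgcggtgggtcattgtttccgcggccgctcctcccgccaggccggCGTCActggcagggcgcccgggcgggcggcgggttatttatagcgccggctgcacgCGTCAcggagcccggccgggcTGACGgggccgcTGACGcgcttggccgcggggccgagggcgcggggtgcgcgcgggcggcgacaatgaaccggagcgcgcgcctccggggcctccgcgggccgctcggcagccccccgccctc
Ppargc1a (chr5:51567726-51567975, minus strand): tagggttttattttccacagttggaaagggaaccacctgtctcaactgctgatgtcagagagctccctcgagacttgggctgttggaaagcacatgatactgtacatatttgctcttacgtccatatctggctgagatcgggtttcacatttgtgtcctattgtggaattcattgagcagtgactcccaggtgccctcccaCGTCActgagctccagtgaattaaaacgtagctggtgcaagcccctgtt
The Nr4a1 window held 4 copies, whose first bases lay 233, 213, 69 and 40 bases before the start. That of Nr4a2 also held 4, at 200, 144, 123 and 111 bases, and that of Ppargc1a held 1, at 49 bases. Of the 32851 promoter windows of this length in the table, 17.8% held the core on either strand and 0.137% held 4 or more. Among the members, 35 had an entry, and 11 of their 54 windows (20.4%) held the core. Nr4a3, too low to be tested, also held 4 copies. Nr2c1, Nr2c2, Nr6a1, Ppara, Rara, Rxrb and Thrb each held at most 1, as Ppargc1a did. The windows shown were picked as those of known CREB targets, so their copies are no test of a link to variability. Such a match is a description of the sequence and shows neither binding nor a cause.

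AAV-GFP replicate 2 was the lowest library for each of the remaining 4 coregulators. NCOR1 (Ncor1), the corepressor, averaged 71.6 ± 6.67 CPM in AAV-Trib3 and 72.6 ± 16.8 CPM in AAV-GFP (SD, n = 4 each), and its highest value, 92.5 CPM, was in AAV-GFP replicate 3. The p160 coactivator Ncoa2 had 41.0, 39.8, 38.0 and 38.8 CPM in AAV-Trib3 and 41.5, 26.3, 39.9 and 39.0 CPM in AAV-GFP, so 7 libraries lay within 38.0 to 41.5 CPM and AAV-GFP replicate 2 far below. Ncoa1 showed the same single low library, at 15.5 to 18.0 CPM in AAV-Trib3 and 19.95, 13.2, 19.7 and 20.3 CPM in AAV-GFP. Its log2 fold change was -0.11 ± 0.16, and -0.23 without AAV-GFP replicate 2. Ncoa3 averaged 16.4 ± 4.01 CPM in AAV-Trib3 and 15.5 ± 4.02 CPM in AAV-GFP, with its lowest value, 9.74 CPM, again in AAV-GFP replicate 2. It was as uneven within AAV-Trib3, where it ran from 11.7 CPM in replicate 3 to 21.4 CPM in replicate 4.

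This library was the lowest of the 8 for 14 of the 37 tested members (37.8%), beside 23.6% of all tested genes. The 14 were Nr1h4, Nr2c2, Nr4a1, Nr4a2, Ppara, Ppard, Rxra, Rora, Thra, Ncor1, Ncoa1, Ncoa2, Ncoa3 and Ppargc1a. It was the highest for 3 (8.11%, beside 21.7% of all tested genes), Nr1i3, Rarb and Esrrg. The other libraries were lowest for between 0 members (AAV-Trib3 replicate 1) and 6 (AAV-Trib3 replicate 4). The part of its mitochondrial share in these values was not tested. Removing mitochondrial genes before scaling reversed no member's direction, and without AAV-GFP replicate 2 edgeR still called 0 members and listed 2 at an unadjusted p under 0.05.

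**Figure D4:**
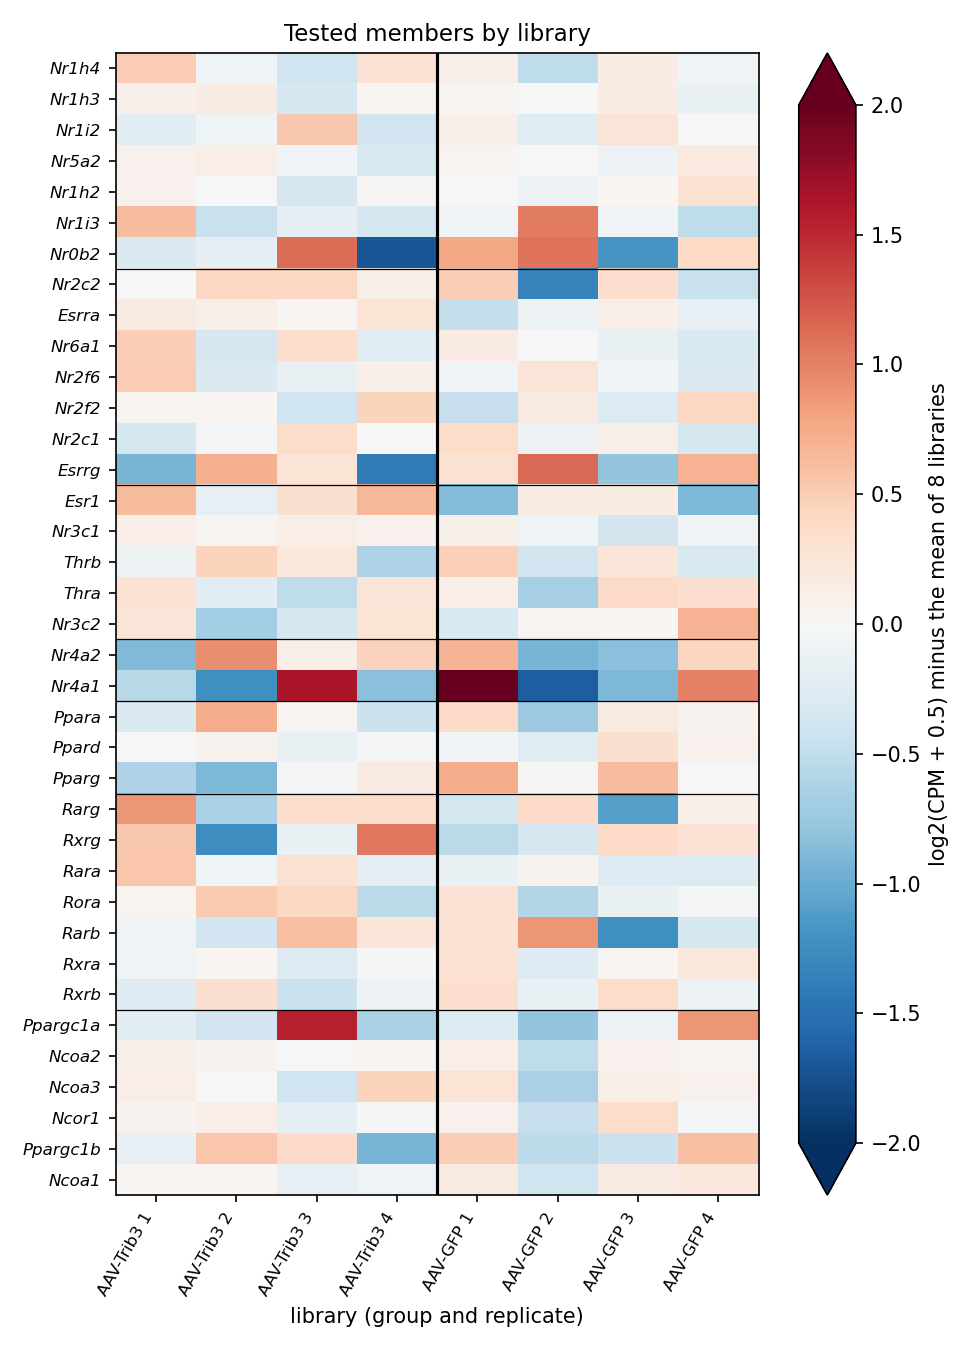
Log2(CPM + 0.5) minus the mean of the 8 libraries for each tested member (rows, grouped by role) in each library (columns, AAV-Trib3 left of the line, AAV-GFP right). Blue cells gather in AAV-GFP replicate 2, the red cells of Nr4a1 lie in AAV-Trib3 replicate 3 and AAV-GFP replicates 1 and 4, and those of Ppargc1a in AAV-Trib3 replicate 3 and AAV-GFP replicate 4.

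Genes known to respond to these receptors were then set beside them. They came from lists named for their receptor and chosen with earlier results of these libraries known, so each list is described by its count and median and was not tested, and some genes stand in more than 1 list. For scale, 52.1% of all tested genes had a log2 fold change below 0. In edgeR, 0 list genes passed adjusted p of 0.05, as 0% of all genes did.

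Lipid storage targets of PPAR gamma had fold changes below 0, as the receptor did. All 5 tested members of 8 had fold changes below 0, with a median log2 fold change of -0.97, and 3 had an unadjusted p under 0.05 (1.78% of all tested genes were at that level and lower). Cd36, a fatty acid translocase, had 14.5, 7.84, 15.3 and 19.9 CPM in AAV-Trib3 and 58.5, 47.9, 36.4 and 16.0 CPM in AAV-GFP. Only AAV-GFP replicate 4 fell within the AAV-Trib3 range, and the log2 fold change was -1.46 ± 0.39 (adjusted p = 0.9995 in edgeR). Cidec, which enlarges lipid droplets, had 2.50, 3.81, 2.36 and 4.46 CPM in AAV-Trib3 and 17.7, 0.703, 40.5 and 1.77 CPM in AAV-GFP, so its log2 fold change of -2.21 ± 0.98 rested on AAV-GFP replicates 1 and 3, the libraries in which Pparg was also highest. Fabp4, a fatty acid carrier of adipocytes and macrophages, had 0.731, 0.513, 0.991 and 0.878 CPM in AAV-Trib3 and 0.671, 2.01, 1.66 and 1.77 CPM in AAV-GFP. Its lowest AAV-GFP value was in replicate 1, where Pparg was highest, so these genes did not all follow Pparg library by library. With 1 library left out in turn, 4 or 5 of the 5 genes were below 0.

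CAR and PXR targets, enzymes and transporters of drug clearance, were below 0 for 15 of 16 tested genes, with a median of -0.45, while PXR itself was at -0.03 ± 0.21 and CAR at -0.25 ± 0.36. Groups did not overlap for 2 of the 16, both lower, beside 1.08% of all tested genes. These were Ugt1a1, which conjugates bilirubin, at 464, 494, 492 and 436 CPM in AAV-Trib3 and 794, 802, 693 and 542 CPM in AAV-GFP, and Abcc3, an efflux pump, at 187, 234, 235 and 177 CPM in AAV-Trib3 and 406, 269.9, 301 and 276 CPM in AAV-GFP. Their log2 fold changes were -0.59 ± 0.17 and -0.59 ± 0.18, with an adjusted p of 0.9995 each in edgeR. Slco1a4, an organic anion transporter, had a log2 fold change of -0.77 ± 0.36. The classical inducible genes, named for that role after their values were seen, were Cyp2b10 at -1.11 ± 0.92 and Cyp3a11 at -0.20 ± 0.28. Cyp2b10 had 66.6 CPM in AAV-GFP replicate 3 and 4.32 to 12.5 CPM in the other AAV-GFP libraries, against 1.32 to 17.5 CPM in AAV-Trib3. The value of Cyp2b10 thus rested on AAV-GFP replicate 3. Leaving out AAV-GFP replicate 1 gave this list a median of -0.28, and leaving out AAV-Trib3 replicate 1 a median of -0.29. The Cyp2b, Cyp2c, Cyp3a and Ugt1a genes have near-identical relatives or shared exons, so counts of single genes are uncertain.

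LXR targets, genes of cholesterol export and fat synthesis, were below 0 for 11 of 11 tested genes, with a median of -0.30, and for 9 of 11 when counts were scaled by library size alone. The LXR transcripts themselves were at -0.03 ± 0.14 and -0.12 ± 0.15. The phospholipid transfer protein Pltp had 7.92, 13.9, 16.7 and 5.94 CPM in AAV-Trib3 and 27.7, 9.94, 23.5 and 23.9 CPM in AAV-GFP, with AAV-GFP replicate 2 inside the AAV-Trib3 range. Abca1, the cholesterol exporter, had 201, 165, 169 and 223 CPM in AAV-Trib3 and 239, 238, 279 and 210.2 CPM in AAV-GFP, a log2 fold change of -0.35 ± 0.16. The lipase Lpl had -0.93 ± 0.48, with 38.6 CPM in AAV-GFP replicate 4 and 7.43 to 12.3 CPM in the other AAV-GFP libraries. Without that library the median of the list was -0.12. Without AAV-GFP replicate 2, 8 of 11 genes were below 0.

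PPAR alpha targets, genes of fatty acid oxidation, had a median of -0.04 with 14 of 23 below 0, close to all genes, and a median of 0.02 in limma-voom. Vnn1, a pantetheinase, had 29.2, 26.0, 27.6 and 32.9 CPM in AAV-Trib3 and 78.2, 40.5, 78.5 and 40.1 CPM in AAV-GFP. Its log2 fold change was -1.04 ± 0.25 (adjusted p = 0.9995 in edgeR). It was the only 1 of the 23 whose groups did not overlap, beside 1.08% of all tested genes in that direction. In edgeR 2 of the 23 had an unadjusted p under 0.05, or 8.70% beside 3.14% of all tested genes. Cyp4a14, a fatty acid hydroxylase, had 292, 253, 69.1 and 180.4 CPM in AAV-Trib3 and 339, 1619, 2017 and 226 CPM in AAV-GFP, so its log2 fold change of -2.40 ± 0.73 rested on AAV-GFP replicates 2 and 3. The dehydrogenase Aldh3a2 was at -0.39 ± 0.19. The oxidation genes Cpt1a, Acadm and Acadl, named after their values were seen, lay between 0.02 and 0.05 on the log2 scale. Over the whole list 22 of 23 genes were below 0 without AAV-GFP replicate 2 and 8 of 23 without AAV-GFP replicate 3.

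Of the remaining lists, the immediate early genes lay below 0 in all tested cases and the others held genes on both sides. FXR and SHP genes of bile acid synthesis and transport had 8 of 11 below 0 (6 of 11 scaled by library size alone) with a median of -0.12. Among these the bile acid importer Slc10a1 was at -0.49 ± 0.32, the bile acid enzyme Cyp27a1 at -0.25 ± 0.19 and the FGF co-receptor Klb at -0.22 ± 0.20, and the rate-limiting enzyme Cyp7a1, named after its value was seen, at 0.57 ± 0.73. Slc10a1 had 1123 CPM in AAV-GFP replicate 2, against 379 to 596 CPM in the other AAV-GFP libraries and 372 to 557 CPM in AAV-Trib3. Cyp27a1 had 824 CPM in that library, against 491 to 610 CPM in the other AAV-GFP libraries and 486 to 594 CPM in AAV-Trib3. Glucocorticoid receptor targets had 5 of 13 below 0 and a median of 0.14, which was -0.07 without AAV-Trib3 replicate 3. The clock gene Per1 was at -0.35 ± 0.21, the zinc finger factor Zbtb16 at 0.48 ± 0.30 and the tyrosine aminotransferase Tat at 0.41 ± 0.38, with 4668 CPM of Tat in AAV-Trib3 replicate 3 and 1314 to 3151 CPM in the other 7 libraries. Thyroid hormone receptor targets had 4 of 5 below 0 and a median of -0.23, led by the malic enzyme Me1 (-0.49 ± 0.27), then Klf9 (-0.21 ± 0.24) and Gpd2 (-0.23 ± 0.34). Retinoic acid receptor targets had 4 of 7 below 0 and a median of -0.23 that was 0.57 without AAV-GFP replicate 2. In that list the retinoic acid hydroxylase Cyp26b1 was at 1.17 ± 0.66 and Stra6l at -0.27 ± 0.19.

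ROR and REV-ERB clock targets had 3 of 8 below 0. The repressor Bhlhe41 averaged 1.75 ± 0.760 CPM in AAV-Trib3 and 4.18 ± 1.36 CPM in AAV-GFP, a log2 fold change of -1.26 ± 0.37. Cry1, another clock repressor, averaged 18.1 ± 3.15 CPM in AAV-Trib3 and 9.65 ± 5.52 CPM in AAV-GFP, a log2 fold change of 0.91 ± 0.35. Neither passed (adjusted p = 0.9995 each in edgeR). Nr1d1 followed at -0.95 ± 0.70. Mitochondrial targets of PGC-1 and ERR had 3 of 12 below 0 with a median of 0.04, and 9 of 12 below 0 without AAV-GFP replicate 2. Its leading genes were the succinate dehydrogenase subunit Sdhb at 0.21 ± 0.14, the pyruvate dehydrogenase kinase Pdk4 at -0.88 ± 0.76 and the mitochondrial transcription factor Tfam at 0.11 ± 0.14. Immediate early genes, the class to which the NR4A receptors belong, were below 0 for 10 of 10 with a median of -1.27, led by Ier2 at -1.29 ± 0.31, Junb at -1.21 ± 0.31 and Egr1 at -2.02 ± 0.58. In edgeR 6 of the 10 had an unadjusted p under 0.05, beside 1.78% of all tested genes at that level and lower, and 0 passed after adjustment. Groups did not overlap for 2 of them, Ier2 and Junb, both lower, beside 1.08% of all tested genes. With 1 library left out the median ran from -1.44 to -0.90. In AAV-Trib3 replicate 3, where Nr4a1 stood at 25.0 CPM, Egr1 stood at 50.2 CPM, inside the 35.6 to 65.0 CPM of the other AAV-Trib3 libraries. In AAV-GFP the 2 libraries high in Nr4a1, replicates 1 and 4, were also the highest in Egr1, at 285 and 422 CPM against 51.5 and 90.0 CPM.

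**Figure D5:**
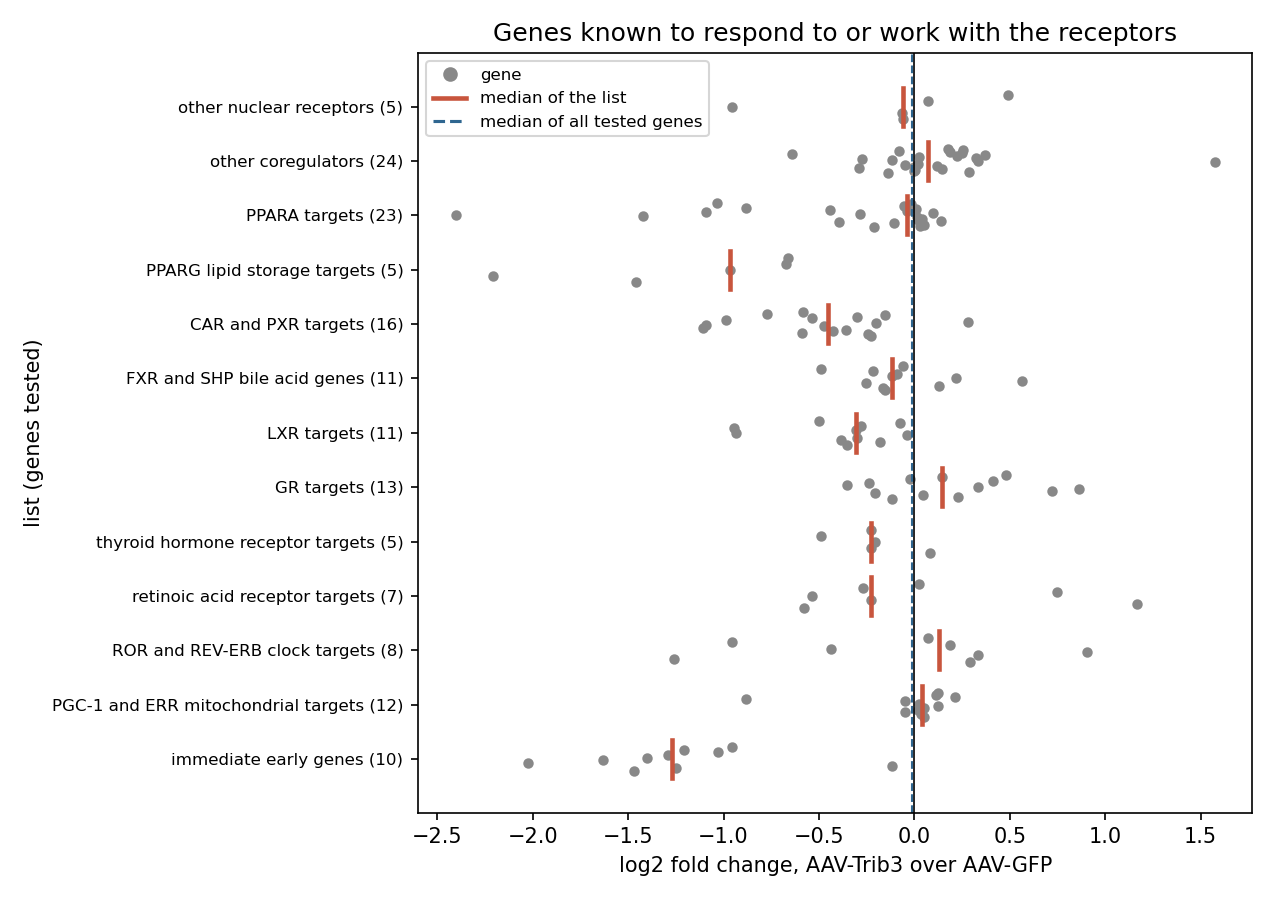
Log2 fold change of AAV-Trib3 over AAV-GFP for each tested gene (grey points) of 13 lists, with the median of each list (red) and of all tested genes (dashed). The PPARG storage, CAR and PXR, LXR and immediate early lists lie mostly left of 0, at medians of -0.97, -0.45, -0.30 and -1.27, and each of the others has genes on both sides of it.

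Receptors and coregulators outside the 40 were counted in the same fit. Of 15 other nuclear receptors 5 were tested, 3 of them below 0, and 0 had an unadjusted p under 0.05. Hnf4a, the receptor that maintains hepatocyte identity, stood at 685 ± 98.0 CPM in AAV-Trib3 and 715 ± 138 CPM in AAV-GFP, a log2 fold change of -0.06 ± 0.19. Of 25 other coregulators 24 were tested, with 8 below 0 and a median of 0.07 that was -0.02 without AAV-GFP replicate 2. An unadjusted p under 0.05 was listed for 2, or 8.33% beside 3.14% of all genes. These were Ncoa4, which delivers ferritin to the lysosome, at 34.2, 30.4, 45.7 and 6.15 CPM in AAV-Trib3 and 5.95, 21.3, 8.52 and 3.91 CPM in AAV-GFP, and the PGC-1 relative Pprc1 at 6.40, 9.60, 7.55 and 13.4 CPM in AAV-Trib3 and 14.4, 9.94, 19.3 and 13.9 CPM in AAV-GFP. In both genes AAV-Trib3 replicate 4 lay with AAV-GFP while the other 3 AAV-Trib3 libraries lay outside its range. Neither passed in edgeR, with an adjusted p of 0.9995 each. Cited2, a CREB-binding protein partner, was at 0.29 ± 0.15.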

How the data were processed

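Poly(A) RNA of 8 mouse hepatocyte libraries was analysed from a table of read counts and FPKM per gene. Counts and FPKM were deposited by the authors as 1 whole-number count and 1 FPKM value per gene and library, per the file headers. Trimmomatic and the mm10 build are named per the submitters' processing notes, while for the aligner, counter, strand setting and FPKM software nothing is stated in the sources used here. The labels give no batch or date, and molecular identifiers are not mentioned, so PCR copies count as reads.

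Genes were filtered with filterByExpr and tested with edgeR 4.0.16 (TMM scaling, robust quasi-likelihood F test, R 4.3.3), AAV-Trib3 over AAV-GFP, with Benjamini-Hochberg adjustment over 11036 genes at 0.05. The standard error is the log2 fold change divided by the square root of F. DESeq2 1.42.0, limma-voom (limma 3.58.1), other scalings and filters, removal of mitochondrial genes, a replicate block and each library left out were the alternatives. The deposited FPKM values, whose gene lengths are not stated, were used only to compare levels between genes. Scripts were tested on simulated counts.

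The members and gene lists were chosen with earlier results of these data known. Values per library are given for the 8 members with the smallest p and a panel of 11 liver members, and for Nr2f2, Ppargc1b, Ncoa1, Ncoa2 and, as counts, Nr4a2, chosen after their values were seen. Up to 3 genes with the smallest p are named per list, beside those said to be named later. A few genes of these lists are not reported here. Marker lists for 6 cell types were summed. No pair of libraries of a group agreed within counting noise, and each was counted as 1 sample. Coordinates and exon overlaps are from GENCODE M21 (mm10) and promoter windows from RefSeq on GRCm38.p6.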

Additional observations from a re-analysis of the deposited data

Results flagged for a closer look

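A gap test for a single library apart from the other 3 of its group was run on the 37 tested members in both groups. It marked 4 of 74 groups, beside the 3.7 that chance gives at 1 in 20. Nr4a1 stood at 25.0 CPM in AAV-Trib3 replicate 3, where the next library of the group had 5.12 CPM. Ppargc1a stood at 25.8 CPM in the same library, where the next had 7.19 CPM. Ncoa1 stood at 13.2 CPM in AAV-GFP replicate 2, where the next library of the group had 19.7 CPM. Ncoa2 stood at 26.3 CPM in that library, where the next had 39.0 CPM.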

How the results depend on the processing

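With 4 libraries a group, the median standard error of a member, 0.24 on the log2 scale, limits what could be seen. No member passed an adjusted p of 0.05 in any of the 16 alternative settings. DESeq2 called 7 genes in all where edgeR called 0, and leaving out 1 library gave 0 to 3. Members at an unadjusted p under 0.05 numbered 1 with library size alone, 1 with the replicate block and 0 to 2 with 1 library left out (0 without AAV-Trib3 replicate 1 or AAV-GFP replicate 1). The median of the retinoic acid receptor targets was 0.30 in limma-voom and ran from -0.33 to 0.57 with 1 library left out, and that of the other coregulators from -0.019 to 0.16. No setting moved the median of all genes by more than 0.1. The cause of these shifts was not tested.

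The replicate numbers did not pair the libraries: the correlations of deviations between AAV-Trib3 and AAV-GFP libraries of the same number were -0.27, -0.13, -0.15 and -0.03. The replicate block called 0 genes and 0 members, and Ncor1 was 0.0037 there.

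Direction changed in 44 of 588 comparisons of a member with its first value, over 20 members, 40 of them with 1 library left out. With library size alone Nr1h3 was 0.029 and Nr2c1 0.026, and with limma-voom Ncor1 was 0.0061. With 1 library left out the log2 fold change ran from -0.31 to 0.18 for Ppargc1b, -0.19 to 0.16 for Thrb, -0.15 to 0.13 for Nr2c1, -0.15 to 0.12 for Ncor1, -0.094 to 0.23 for Nr2f2, -0.24 to 0.60 for Rarb and -0.26 to 0.081 for Nr1i2. It ran from -0.081 to 0.21 for Ncoa3, -0.23 to 0.21 for Ppara, -0.085 to 0.076 for Nr1h3, -0.021 to 0.17 for Ncoa2, -0.55 to 0.19 for Nr1i3, -0.12 to 0.025 for Nr5a2 and -0.042 to 0.97 for Nr4a2. The range was -2.07 to 0.31 for Nr4a1, -0.066 to 0.23 for Nr2f6, -0.52 to 0.77 for Ppargc1a, -0.18 to 0.030 for Ppard, -0.14 to 0.70 for Rxrg and -0.33 to 0.013 for Thra. The cause was not tested.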
